A study of Mus musculus with 6 samples.

Results

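The 35 genes described here encode complement components, their regulators and their receptors, and were taken by name from a list of current and older symbols. A probe set is a group of short probes that reports 1 transcript, and where several were listed with 1 gene's symbol alone, the brightest on average was used. Such a probe set was matched for 31 of the 35 genes, and 30 of them were above the detection floor on at least 1 array, out of 13989 measured genes in all. The floor, a signal of 221.4, is the 50th percentile of all deposited values, and 27 of the 30 measured genes were above it on all 6 arrays. C3, C7 and Cfd were not analysed here, and C4b was not used because its probe set is also listed for C4a. Itgam, the alpha chain of complement receptor 3, was below the floor on all 6 arrays, with 183 and 172 on the canertinib arrays, 142 and 91.3 on the diet arrays, and 166 and 119 on the chow arrays, and no fold difference is given for it.

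Complement is a cascade of plasma proteases that marks surfaces for removal. It is started by C1q bound to immune complexes or other ligands (classical pathway), by mannose-binding lectins and ficolins bound to sugars (lectin pathway), or by continuous low-level activation on surfaces (alternative pathway). The pathways meet at C3 and C5, whose fragments attract and activate leukocytes, and end in the membrane attack complex built from C5b to C9. Hepatocytes secrete most of these proteins into plasma, several as acute phase proteins, whereas the C1q chains and properdin come mainly from macrophages and other myeloid cells.

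Transcripts were measured on Affymetrix Mouse Genome 430 2.0 arrays in livers of male mice of the inbred strain C57BL6/J, for which the labels name no engineered allele, aged 6 to 8 weeks when feeding began. There were 2 studies, of 2 and 5 months, with 3 groups in each, and every group was 1 array that received pooled RNA of 3 to 4 livers. The canertinib groups received fast-food diet and canertinib, an irreversible inhibitor of the EGFR family of receptor kinases. In the 2-month study the food carried the drug from start to end, with an intake put at 80 mg/kg daily. The 5-month livers had it by injection into the peritoneum at 80 mg/kg, on 5 days of each of the last 5 weeks. The diet groups received the fast-food diet alone, with vehicle injections (PBS) in the 5-month study. By weight, that diet was 21% fat, 34% sucrose and 0.2% cholesterol, while the drinking water held 18.9 g/L glucose and 23.1 g/L fructose. The chow groups received chow, with no injection named. Route, duration and study length therefore cannot be told apart between the studies, and a chow comparison at 5 months does not separate diet from injection.

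Differences within a study are between 2 arrays, have no replicate check and carry no p-value. They are given as log2 differences, after signals below the floor were raised to it, so that a gene at the floor on 1 array gives a bound. The only test was a limma fit over all 6 arrays with terms for treatment and study, in which the 2 studies serve as each other's replicates and which leaves 2 residual degrees of freedom. Its p-values set the mean treatment difference against how far that difference varies between the 2 studies. The variance of each gene is drawn toward a trend over all genes, with 3.49 prior beside 2 residual degrees of freedom. An effect that differs with route, duration or study length counts as error there, along with spread between pools, which may be partly technical. From 84.3% to 86.6% of measured genes were above the floor on each array. The log2 ratio of the 3' to the 5' actin probe sets, a sign of RNA quality, was 1.19 and 1.12 on the canertinib arrays at 2 and 5 months, 0.85 and 0.98 on the diet arrays, and 0.94 and 0.85 on the chow arrays. The same ratio for Gapdh was -0.20 and -0.14 with canertinib, -0.30 and -0.22 with the diet, and -0.18 and -0.09 with chow. The liver label was checked against 10 hepatocyte markers, among them Alb and Apoa1, and 10 of 10 were above the floor on all 6 arrays. The chow arrays of the 2 studies differ in neither diet nor drug, but study, age and handling cannot be told apart between them. They give a background: at 5 months 0 of 30 complement genes were higher and 0 lower by 2-fold or more, beside 1.28% and 1.32% of all genes. With shares that small, 0 of 30 does not set the members apart.

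Promoter windows are shown for 2 pairs of neighbouring genes whose signals are described in full, C1qb with C1qc and C8a with C8b, and for the regulator gene C4bp. They are RefSeq sequences on build GRCm38.p6, each with 250 bases before and 50 after the gene's start. C1qb (chr4:136886151-136886450, minus strand) and C1qc (chr4:136892865-136893164, minus strand) each hold 2 overlapping matches to the NF-kB-like pattern, GGG and CC separated by 5 bases. C8a (chr4:104876349-104876648, minus strand) has a STAT pattern, TTCNNNGAA, while C8b (chr4:104766067-104766366, plus strand) has none of the patterns searched. C4bp (chr1:130661569-130661868, minus strand) has an HNF1-like GTTAATNAT. Capitals mark these matches, on either strand.
C1qb: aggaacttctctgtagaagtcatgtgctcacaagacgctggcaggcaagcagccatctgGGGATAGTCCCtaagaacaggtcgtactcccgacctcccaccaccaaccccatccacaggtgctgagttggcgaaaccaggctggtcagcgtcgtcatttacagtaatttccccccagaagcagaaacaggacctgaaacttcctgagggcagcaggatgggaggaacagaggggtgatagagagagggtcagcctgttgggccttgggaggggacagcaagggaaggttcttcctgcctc
C1qc: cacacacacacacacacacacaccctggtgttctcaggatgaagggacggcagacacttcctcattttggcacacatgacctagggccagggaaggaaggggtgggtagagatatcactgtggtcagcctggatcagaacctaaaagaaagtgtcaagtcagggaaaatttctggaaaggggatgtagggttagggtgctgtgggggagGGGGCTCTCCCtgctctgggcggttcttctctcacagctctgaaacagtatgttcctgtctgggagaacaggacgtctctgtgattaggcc
C8a: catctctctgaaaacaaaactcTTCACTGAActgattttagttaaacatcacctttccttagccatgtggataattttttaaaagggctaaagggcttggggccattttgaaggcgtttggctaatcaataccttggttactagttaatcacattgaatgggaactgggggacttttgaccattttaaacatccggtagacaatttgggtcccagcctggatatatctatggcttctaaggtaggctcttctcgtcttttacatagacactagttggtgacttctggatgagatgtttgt
C8b: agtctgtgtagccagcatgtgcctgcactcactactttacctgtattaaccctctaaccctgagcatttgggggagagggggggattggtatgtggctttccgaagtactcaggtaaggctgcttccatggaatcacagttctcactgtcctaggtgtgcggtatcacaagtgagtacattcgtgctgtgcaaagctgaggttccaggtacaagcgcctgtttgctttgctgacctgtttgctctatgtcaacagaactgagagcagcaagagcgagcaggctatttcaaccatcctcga
C4bp: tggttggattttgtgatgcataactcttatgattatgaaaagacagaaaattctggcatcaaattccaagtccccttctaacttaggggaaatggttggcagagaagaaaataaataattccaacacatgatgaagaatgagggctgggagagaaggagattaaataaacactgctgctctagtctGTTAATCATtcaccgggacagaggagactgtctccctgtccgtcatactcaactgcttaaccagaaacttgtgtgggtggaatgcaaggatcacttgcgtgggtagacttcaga

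Promoter windows were matched for 26 of the 35 genes and searched on both strands, along with 32851 windows in the table. The STAT pattern was held by 4 of 26 (15.4%), against 8.3% of all windows, the C/EBP-like TTNNGNAAT by 8 (30.8%) against 11.5%, the NF-kB-like pattern by 13 of 26 against 50.8%, and the HNF1-like pattern by 2, C4bp and Hc (7.69%), against 0.801%. A match describes letters in the window and not a bound site.

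The 3 chains of C1q, the recognition unit of the classical pathway, were higher on both diet arrays than on both chow arrays. The genes C1qa, C1qb and C1qc lie next to each other on mouse chromosome 4, and each C1q molecule holds equal numbers of the 3 chains. C1qa had signals of 4707 and 4571 on the canertinib arrays at 2 and 5 months, 3925 and 5179 on the diet arrays, and 877.5 and 918.5 on the chow arrays. All 4 fast-food arrays, with or without the drug, were thus well above the chow arrays. C1qc had 4725 and 3977 on the canertinib arrays, 2782 and 4193 on the diet arrays, and 1198 and 1068 on the chow arrays. C1qb had 1575.5 and 2958 on the canertinib arrays, 2344.5 and 3058 on the diet arrays, and 784 and 696 on the chow arrays. On the probe sets used, the fast-food arrays did not overlap the chow arrays for any of the 3 chains, while the canertinib and diet arrays overlapped each other. Both diet arrays lay above both chow arrays for 18.2% of all measured genes.

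With the diet, C1qa was 4.47-fold and 5.64-fold higher than with chow at 2 and 5 months, C1qb 2.99-fold and 4.39-fold, and C1qc 2.32-fold and 3.93-fold. C1qa rose with the diet in the fit over both studies, by a log2 difference of 2.33 ± 0.15 (SE, limma, Benjamini-Hochberg adjusted p = 0.0385). It was the only complement gene of 30 to pass that test among 4 genes in all, or 0.0286% of measured genes, all of them higher. C1qb and C1qc had an adjusted p of 0.144 each in limma and did not pass. Of 8 other settings, 4 kept C1qa under 0.05. Fits without 1 of the 6 arrays did not keep the call. Those fits have 1 residual degree of freedom and 1 array in a group, so they cannot show whether the call rests on a single array. In the canertinib livers against chow, C1qa rose by 2.37 ± 0.15 and C1qc by 1.94 ± 0.23 on the log2 scale (SE, limma adjusted p = 0.0113 and 0.0407). These 2 of 30 stood beside 0.558% of all genes called higher. Of 8 other settings, 8 kept C1qa and 5 kept C1qc under 0.05. Neither call held in the fits without 1 array, which cannot decide this for the same reason.

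Between canertinib and diet, no C1q chain was at least 2-fold different in either study. The log2 differences at 2 and 5 months were 0.26 and -0.18 for C1qa, -0.57 and -0.05 for C1qb, and 0.76 and -0.08 for C1qc. The probe sets of C1qb disagreed: at 2 months the others had 0.68 and 1.21 between canertinib and diet, and for the diet against chow 0.07 and 0.33, then 0.03 and 1.81 in the 5-month study.

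**Figure D1:**
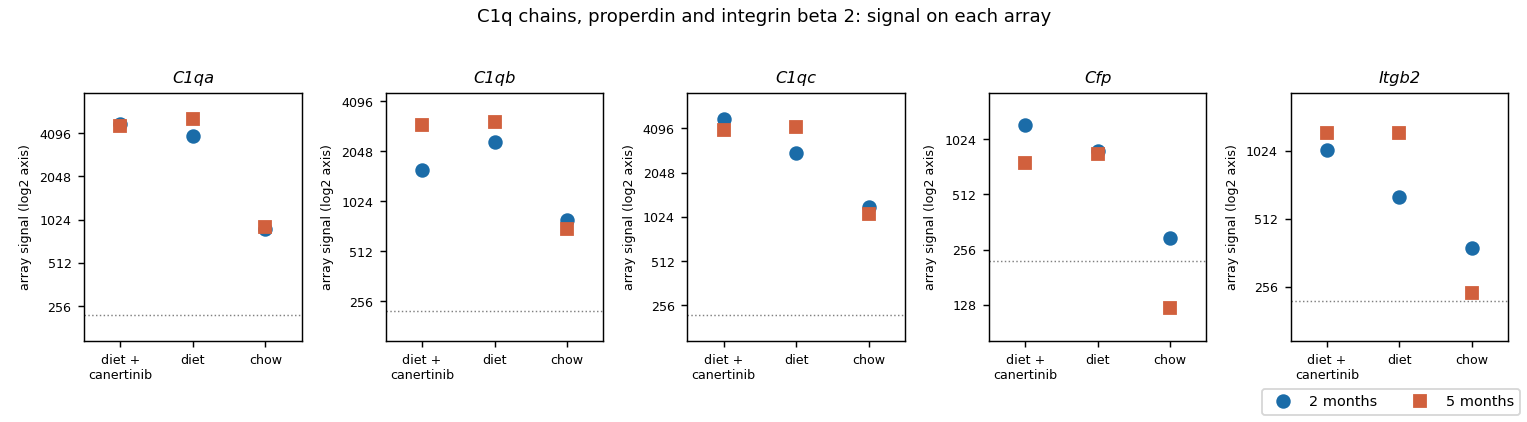
Signals (vertical axis, log2 scale) of the C1q chains, Cfp and Itgb2 on each of the 6 arrays, with diet + canertinib left of diet and chow, circles for the 2-month and squares for the 5-month study; the dotted line is the floor. The fast-food arrays, with or without canertinib, lie above the chow arrays for the 3 C1q chains, with C1qa between 3925 and 5179 against 877.5 and 918.5 on chow.

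Cfp and Itgb2, which are expressed by myeloid cells, were also higher on the fast-food arrays than on the chow arrays. Cfp, which encodes properdin, the stabiliser of the alternative pathway convertase, had signals of 1217 and 757 on the canertinib arrays, 888 and 848 on the diet arrays, and 295 and 122 on the chow arrays. It was 3.01-fold higher with the diet at 2 months and at least 3.83-fold at 5 months, because its 5-month chow signal was below the floor (limma adjusted p = 0.144). Its other probe set had log2 differences of -1.20 and 0.21 for the same comparisons. Itgb2, the beta chain shared by complement receptors 3 and 4, had 1029 and 1227 on the canertinib arrays, 639 and 1228 on the diet arrays, and 379.8 and 240.5 on the chow arrays. It was 1.68-fold and 5.10-fold higher with the diet (limma adjusted p = 0.339), a difference that was larger in the 5-month study, and between the studies it was not tested.

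Macrophage or monocyte markers were mostly higher on the fast-food arrays too, and Kupffer cell markers were mixed with the diet. Of the 12 listed macrophage or monocyte markers, 11 had a probe set, and 1 of these, Trem2, was below the floor on all arrays. The summed signal of the 11 was 23880 and 31150.0 on the canertinib arrays, 21901 and 26404 on the diet arrays, and 11094 and 10588 on the chow arrays. With the diet against chow, 9 and 10 of the 10 measured markers were higher and none lower, and with canertinib against chow 7 and 10 were higher and 2 and 0 lower. Among the 10, Gpnmb passed the floor only on the 5-month fast-food arrays, so at 5 months it could not be lower than chow. The 8 Kupffer cell markers, none of them below the floor on all arrays, summed to 25941 and 26733.5 with canertinib, 19515 and 21801 with the diet, and 13204 and 13172 with chow. With the diet against chow, 6 and 4 of these 8 were higher and 2 and 4 lower, so the Kupffer sum does not describe each marker. Cd5l and Slc40a1 make up much of it. Cd5l had 8498 and 12096 on the canertinib arrays, 6572 and 11849.5 on the diet arrays, and 1897 and 2449 on the chow arrays. Slc40a1 had 6592 and 5440 with canertinib, 6661 and 4519 with the diet, and 7205 and 6922.5 with chow. It was thus lower on the fast-food arrays than on the chow array of the same study. The part of these markers in the C1q differences was not tested. In bulk liver, more or fewer cells of a type and more or less RNA per cell cannot be told apart.

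In liver, the proteases of the classical pathway are secreted by hepatocytes, and C1ra, which activates C1s, and C1s1, which cuts C4 and C2, were higher on the canertinib arrays than on the diet arrays. C1ra had signals of 4144 and 5616 on the canertinib arrays, 2912 and 2866 on the diet arrays, and 3731 and 4126 on the chow arrays. Its canertinib arrays lay above both diet arrays, its diet arrays lay below both chow arrays, and the log2 difference with the drug was 0.51 and 0.97 (limma adjusted p = 0.128). C1s1 differed less, by 0.29 and 0.39 with the drug and by 0.00 and -0.01 with the diet. C2, the protease of the C3 convertase, had log2 differences with the drug of 0.99 in the 2-month and -0.07 in the 5-month study. Its other probe sets had 0.53 each in the 2-month study, and 0.21 and 1.34 in the 5-month study, so the 5-month direction of C2 depends on the probe set.

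In the lectin pathway, Mbl1, a mannose-binding lectin, had signals of 6221 and 8789.8 on the canertinib arrays, 4022 and 4071.5 on the diet arrays, and 3829 and 5609.9 on the chow arrays. It was 1.55-fold and 2.16-fold higher with canertinib than with the diet, and its canertinib arrays lay above both diet and both chow arrays (limma adjusted p = 0.12 against diet). Mbl2, the other lectin, had smaller log2 differences with the drug, 0.37 and 0.31, and with the diet -0.10 and -0.70. Fcna (ficolin A) had 0.05 and 0.32 with the drug and 0.57 and 0.04 with the diet. The lectin proteases Masp1 and Masp2 had 0.17 and 0.18, and -0.10 and 0.20 with the drug. None of the 4 other probe sets of Masp1 shared its sign at 5 months, and the other probe set of Masp2 had the opposite sign with the diet in both studies.

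In the alternative pathway, Cfb, the protease factor B, had signals of 19570.4 and 19405 on the canertinib arrays, 11887 and 11999 on the diet arrays, and 12009 and 13336 on the chow arrays. The canertinib arrays were 1.65-fold and 1.62-fold above the diet arrays, while the diet arrays were 0.990-fold and 0.900-fold of chow. Its limma adjusted p against diet was 0.151.

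The terminal pathway held the member with the lowest log2 difference among the 30 with the diet in both studies. C8b, the beta chain of C8, which anchors the growing complex to C5b-C7, had signals of 4597 and 4913 on the canertinib arrays, 2210.3 and 937 on the diet arrays, and 6590.2 and 7417 on the chow arrays. The diet arrays were at 33.5% and 12.6% of chow, and the canertinib arrays at 69.8% and 66.2%, so the diet arrays lay below all others and the canertinib arrays lay between. C8b was 2.08-fold and 5.24-fold higher with canertinib than with the diet. In limma its log2 difference was -2.28 ± 0.36 with the diet and 1.72 ± 0.36 with canertinib against diet (SE, adjusted p = 0.175 and 0.129), and neither passed. C8b rests on 1 probe set, whose ending (_a_at) marks probes shared by several transcripts, and leaving out such probe sets leaves C8b without a value.

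C8a, the alpha chain, whose gene lies beside C8b on mouse chromosome 4, had 9665 and 18012 on the canertinib arrays, 6934 and 7131.5 on the diet arrays, and 12099.7 and 15833.5 on the chow arrays. The diet arrays were again the lowest, at log2 differences of -0.80 and -1.15 from chow (limma adjusted p = 0.301), and canertinib was 0.48 and 1.34 above diet (adjusted p = 0.183). C8g, the gamma chain, had 16261 and 12263.5 with canertinib, 22331 and 12539.7 with the diet, and 18452 and 20575 with chow, so that its canertinib arrays lay below both chow arrays and its diet arrays overlapped both groups. Hc, which encodes C5, had 17997 and 17309 on the canertinib arrays, 8627 and 9569 on the diet arrays, and 11161 and 13962 on the chow arrays, with log2 differences of 1.06 and 0.86 for canertinib against diet (limma 0.96, adjusted p = 0.0927). C6 had 4399 and 5538.5 with canertinib, 3749 and 2972 with the diet, and 4968 and 5860.5 with chow, and its diet arrays lay below all others. C9, the pore-forming subunit, had 18705 and 23279 with canertinib, 25129 and 19503 with the diet, and 22731 and 24041 with chow, and its groups overlapped.

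**Figure D2:**
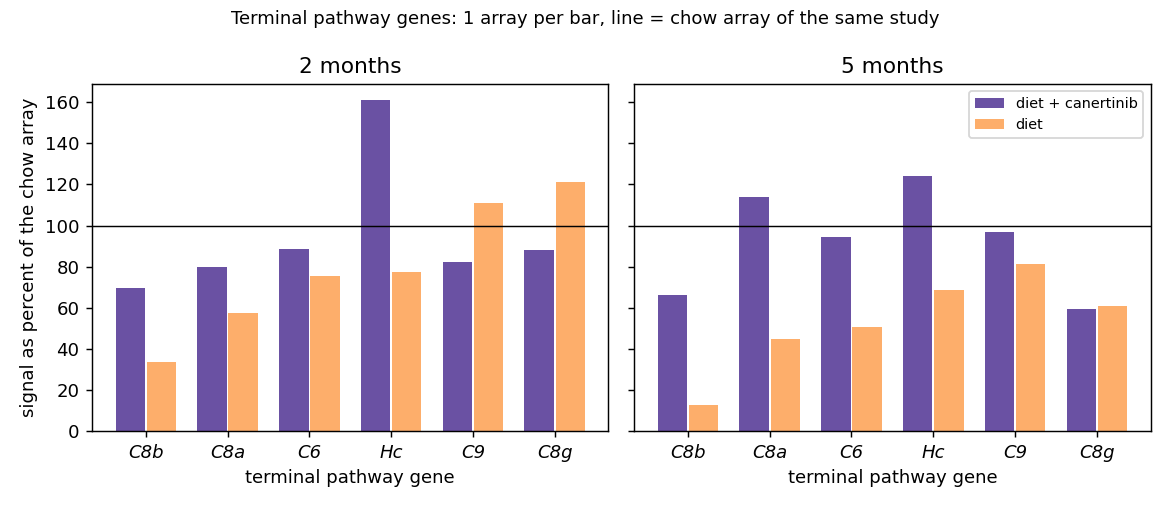
Signals of the terminal pathway genes on the fast-food arrays as percent of the chow array of the same study (vertical axis, 1 array per bar), canertinib left of diet, with a line at the chow array. C8b is at 69.8% and 66.2% of chow with canertinib and, lowest of the 6 genes, at 33.5% and 12.6% with the diet.

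The soluble regulators, made by hepatocytes, were higher on both canertinib arrays than on both diet arrays for 4 of 4 measured, an order that 19.6% of all measured genes showed. C4bp, the chain of C4b-binding protein that limits the classical C3 convertase, had signals of 23096 and 27932 on the canertinib arrays, 10817 and 11419 on the diet arrays, and 9372 and 12268 on the chow arrays. It was 2.14-fold and 2.45-fold higher with canertinib than with the diet. Serping1, the C1 inhibitor that also restrains kallikrein, had 37151 and 36211 with canertinib, 20282 and 15850.5 with the diet, and 17848 and 22328 with chow. Cfi, the protease that cleaves C3b and C4b, had 46227 and 34945 with canertinib, 25221 and 18951 with the diet, and 23893 and 26766 with chow.

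Clu, the chaperone clusterin, which holds back the terminal complex, had 63894 and 59111 with canertinib, 34554 and 40131 with the diet, and 39530.3 and 45669 with chow, and its other 3 probe sets were higher with canertinib in both studies too. In limma none of the 4 passed, with C4bp nearest for canertinib against diet (log2 difference 1.19 ± 0.17 SE, adjusted p = 0.064). Across 8 other settings, 1 brought C4bp under 0.05, with limma adjusted p from 0.0307 to 0.11. No leave-out fit did, and with 1 residual degree of freedom those fits cannot decide it. The medians of the 4 regulators were 0.88 and 1.04 with canertinib against diet, and 0.13 and -0.34 with the diet against chow, beside 0.00 for all measured genes in each.

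**Figure D3:**
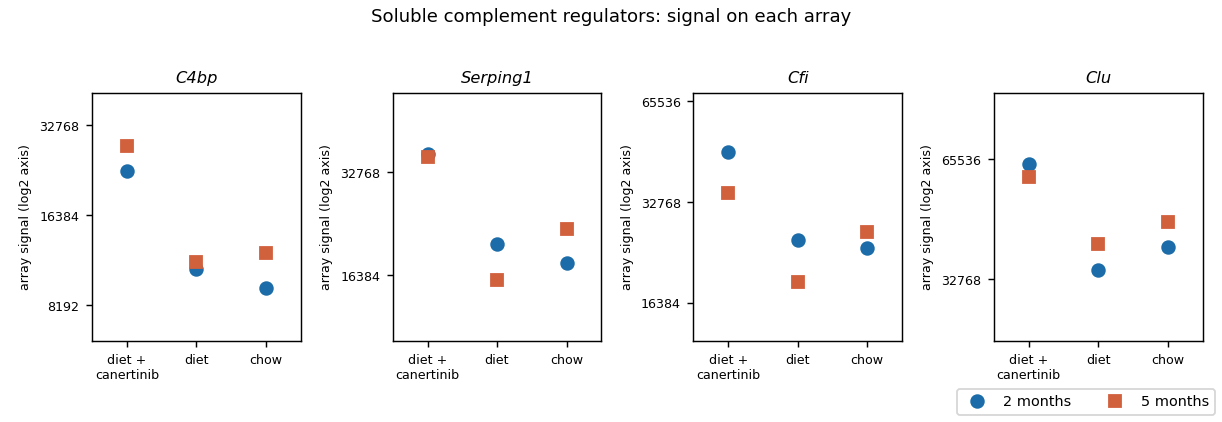
Signals (vertical axis, log2 scale) of the 4 soluble regulators on each of the 6 arrays, with diet + canertinib left of diet and chow, circles for the 2-month and squares for the 5-month study. The canertinib arrays lie above both diet arrays for C4bp (23096 and 27932 against 10817 and 11419) and for Serping1, Cfi and Clu.

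The membrane regulators protect the body's own cells. Of the 4, Cd46 was the one at least 2-fold different in a diet or canertinib comparison. Cd59a, the inhibitor of the membrane attack complex, and Cr1l, the mouse C3 regulator Crry, had log2 differences of at most 0.18 with canertinib against diet and at most 0.26 with the diet against chow. The other probe set of Cd59a, however, had -0.69 and -2.07 with canertinib. Cd55, which speeds the decay of convertases, was dim, with 277.8 and 236.0 on the canertinib arrays, 297.0 and 233.8 on the diet arrays, and 171.9 and 180.3 on the chow arrays, the last below the floor. Cd46, which in mice is expressed mainly in testis, had 306 and 507 with canertinib, 398 and 173 with the diet, and 353 and 492 with chow, the diet value at 5 months being below the floor. At 5 months Cd46 was therefore at least 2.29-fold higher with canertinib than with the diet, and the diet array was lower than chow by at least 2.22-fold, while at 2 months the log2 differences were -0.38 and 0.17.

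The receptors for the C3a and C5a fragments had log2 differences between -0.42 and 0.59 on the probe sets used. Another probe set of C3ar1, above the floor on all 6 arrays, had 0.81 with the diet against chow at 2 months, where the one used had -0.23. C3ar1 had 572 and 689 with canertinib, 485 and 619 with the diet, and 570.1 and 459.7 with chow. C5ar1 had 657 and 386 with canertinib, 437 and 475 with the diet, and 583 and 456 with chow.

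**Figure D4:**
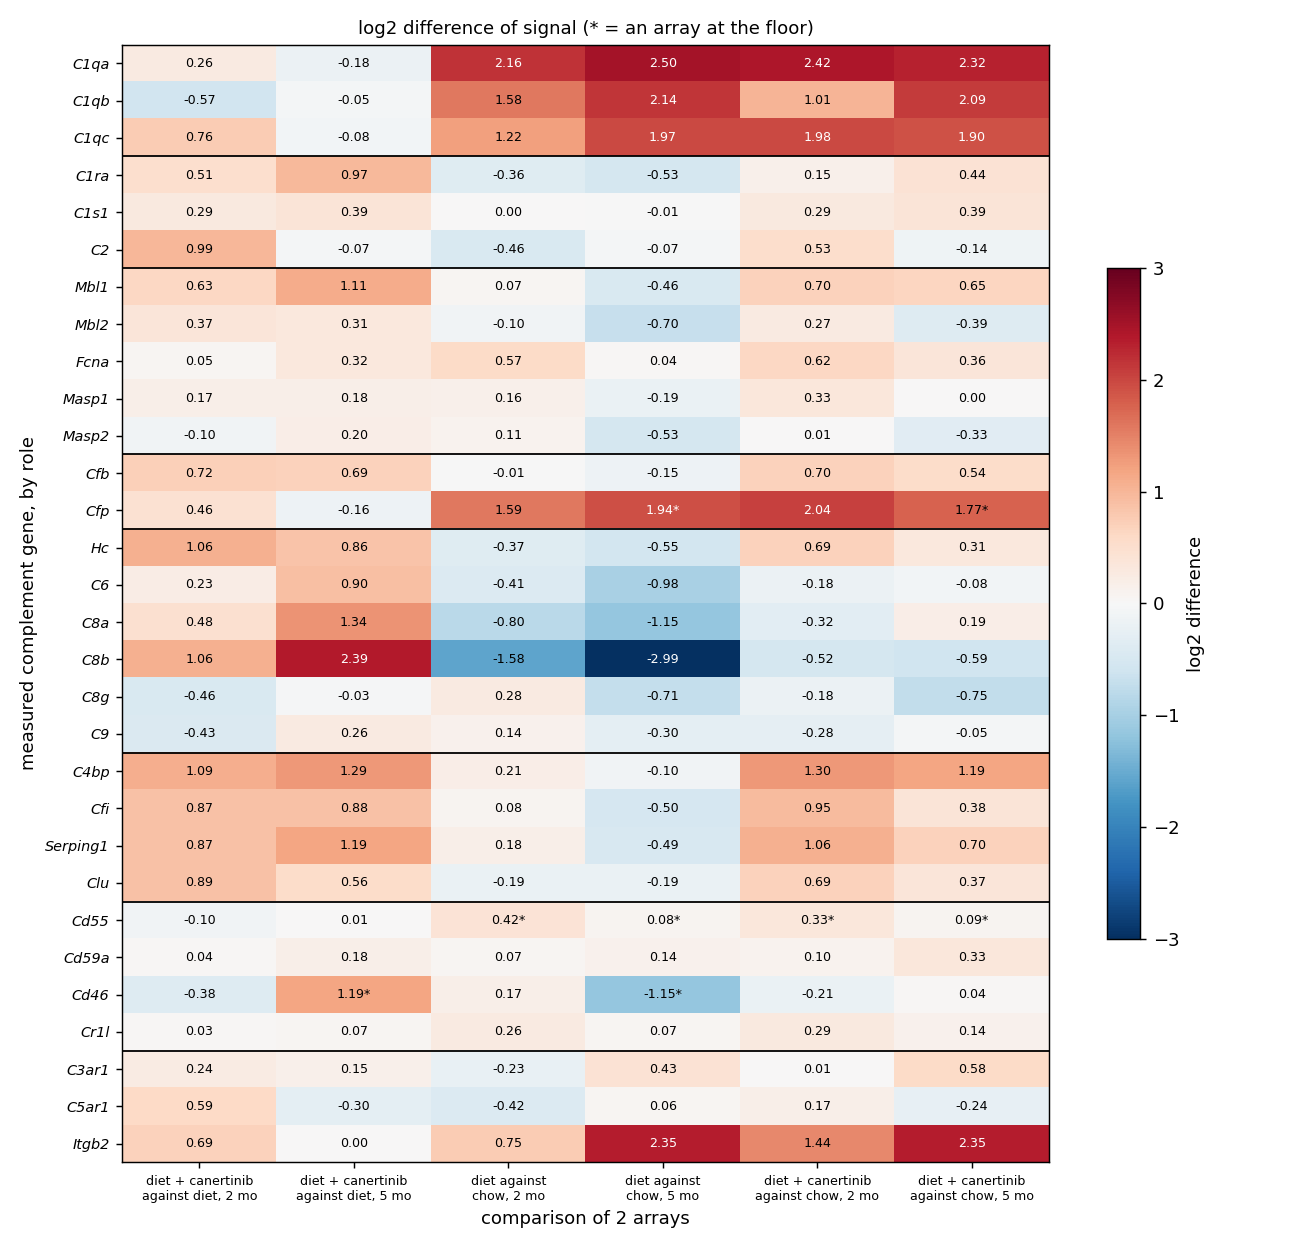
Log2 differences of the measured complement genes (rows, by role) in each comparison (columns, canertinib against diet at the left), coloured by size; an asterisk marks a bound. On the probe sets used, the C1q chains and Cfp are higher with the diet than with chow in both studies, C8b is lower, and the soluble regulators are higher with canertinib against diet.

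Over the 30 measured members the median log2 difference was 0.41 and 0.28 with canertinib against diet, 0.33 and 0.34 with canertinib against chow, and 0.09 and -0.17 with the diet against chow, beside 0.00 for all measured genes in each. Counts over the 30 are read beside the same share of all 13989 measured genes. With the diet, 4 were at least 2-fold higher at 2 months, where 1.98% of all genes were, and 1 was lower, where 1.55% were. At 5 months the diet gave 5 higher beside 2.72%, and 3 lower beside 1.83%. With canertinib against diet, 3 were higher at 2 months beside 3.55%, and 0 lower beside 3.26%, and at 5 months 6 were higher beside 2.19% and 0 lower beside 2.73%. With canertinib against chow, 7 were higher at 2 months beside 3.8% and 0 lower beside 2.74%, and at 5 months 6 were higher beside 2.82% and 0 lower beside 2.72%. In limma 0 members passed for canertinib against diet, where 57 genes, or 0.407% of all, were called higher, and 12 members had an unadjusted p under 0.05, all of them higher, beside 7.24% of all genes higher at that p.

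Against chow, limma put C4bp at a log2 difference of 1.24 ± 0.17 in the canertinib livers (SE, adjusted p = 0.0598) and gave Cfp an adjusted p of 0.0534 and Itgb2 one of 0.122, so that these 3 did not pass.

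By the order of the arrays, both canertinib arrays lay above both diet arrays for 13 of 30 members, beside 19.6% of all genes. Both diet arrays lay above both chow arrays for 9 members, beside 18.2%, and below for 7, beside 20.0%. Both canertinib arrays lay above both chow arrays for 19 members, beside 20.8%. These orders use signals without the floor. Cd55 is among the 9 and the 19 above chow. Only its fast-food arrays passed the floor, so its order against chow follows from its being measured. Members higher with canertinib than with the diet by at least 1.5-fold at both times numbered 7 of 30 (23.3%), where 3.08% of all genes were. On the probe sets used, the members at least 2-fold higher with the diet at both times were C1qa, C1qb, C1qc and Cfp, and the member at least 2-fold lower was C8b. Of all 13989 measured genes, 105 were higher and 40 lower by that rule. The other probe sets of C1qb and Cfp were not 2-fold higher at both times.

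**Figure D5:**
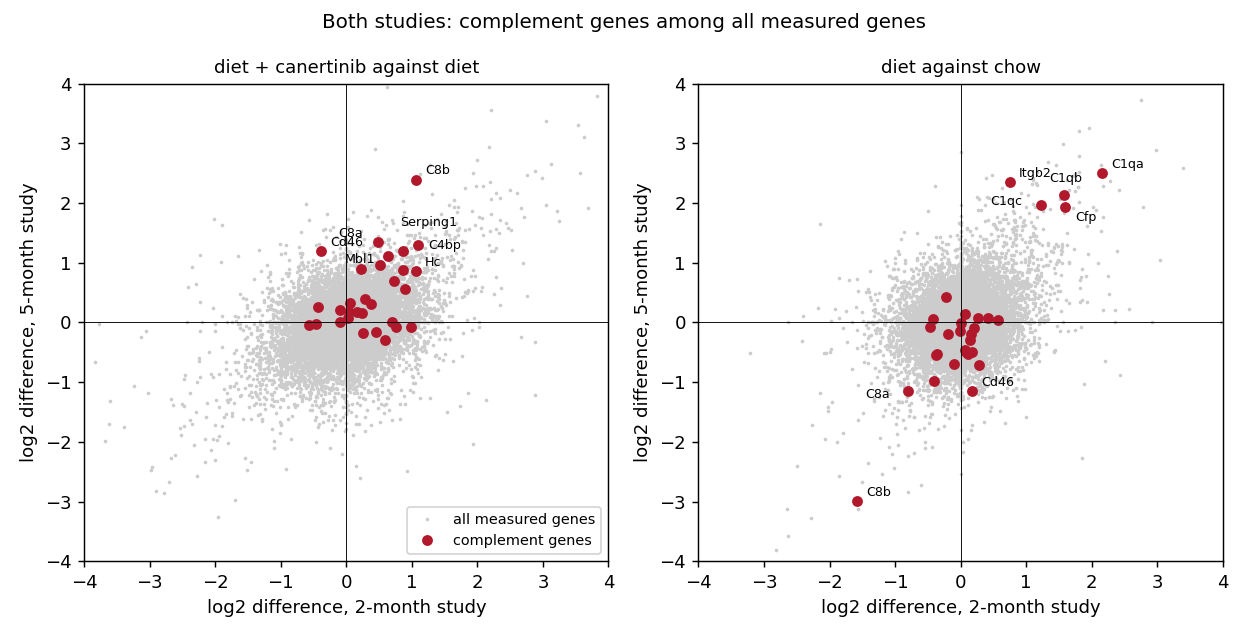
Log2 differences of all measured genes (grey) and the complement genes (red), 2-month study on the horizontal axis and 5-month study on the vertical axis, for diet + canertinib against diet (left panel) and diet against chow (right panel); 16 and 3 genes lie outside the axis limit of 4. On the probe sets used, the C1q genes and Cfp lie high at both times with the diet, and C8b lies low, while C8b and C4bp lie high with canertinib against diet.

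The 18 members made mainly by hepatocytes, a grouping chosen after the values were seen, had a median log2 difference of -0.01 and -0.50 with the diet at 2 and 5 months and of 0.57 and 0.77 with canertinib against diet. At 5 months 18 of 18 were lower with the diet on the probe sets used, where of all 13989 measured genes 6865 were lower and 6015 higher. That count depends on the probe set and includes C1s1 at -0.01. None of the 4 other probe sets of Masp1 was lower, 1 of 3 others of Clu was, and the other one of Masp2 had 0.20. With canertinib 14 of 18 (77.8%) were higher at both times, where 25.9% of all genes were. Of the hepatocyte markers 10 of 10 were lower with the diet at 5 months (median -0.35), and 10 of 10 were higher with canertinib against diet at both times (medians 0.46 and 0.39). Their summed signal was 530051 and 410152 with canertinib, 407679 and 305194 with the diet, and 361790.1 and 395196 with chow. The 20 acute phase genes had medians of 1.53 and 2.00 with canertinib against diet, and 0.25 and -0.28 with the diet against chow. Neutrophil markers summed to 16336 and 17447 with canertinib, 3961 and 3232 with the diet, and 3310.0 and 3504 with chow, with 1 of 9 with a probe set, Camp, below the floor on all arrays. Of the 8 measured, 8 and 7 were higher with canertinib against diet and none lower, 4 and 6 of them by at least 2-fold. S100a8 and S100a9 make up much of the canertinib sums. Csf3r had log2 differences of 0.05 and 0.36 and Cxcr2 0.55 and 0.00, so the sum does not describe each marker. The 3' to 5' actin ratio was also higher on both canertinib arrays than on the other 4. The Gapdh ratio was higher on both canertinib arrays than on both diet arrays, and overlapped that on the chow arrays. The part of any of these in the complement differences was not tested.

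Of 27 other complement genes listed beside the members, 16 were measured. Their medians were 0.05 and -0.12 with the diet, and 0.17 and 0.14 with canertinib against diet. With the diet, 0 and 2 were at least 2-fold higher, beside 1.98% and 2.72% of all genes. Lower by as much were 1 and 1, beside 1.55% and 1.83%. With canertinib against diet, 2 and 1 were higher, beside 3.55% and 2.19%, and 0 and 1 lower, beside 3.26% and 2.73%. Susd4, a sushi-domain inhibitor of complement, was the gene of this list at least 2-fold different with the diet in the same direction at both times, and for canertinib against diet there was none. Susd4 had signals of 341 and 246 on the canertinib arrays, 194 and 169.5 on the diet arrays, and 766 and 800.3 on the chow arrays. Because both diet arrays were below the floor, its log2 differences of -1.79 and -1.85 are bounds.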

How the data were processed

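Liver RNA of 6 groups was measured on 1 array each, from pools of 3 to 4 livers. MAS5, Affymetrix's signal algorithm, made the values, per the submitters' processing notes; its version was not given in the sources used here. What the authors deposited is intensity on a linear scale, and the mean of each array after trimming 2% of probe sets at either end is 500. Of 45101 probe sets, 34958 had 1 gene symbol in the platform annotation, 932 several and 9211 none, and each of 18194 genes was given by the 1-symbol probe set of highest mean signal. Signals were raised to 221.4 and log2 transformed here. Each group was 1 array, so no test was possible within a study. A limma 3.58.1 fit (R 4.3.3, terms for treatment and study, variance trend, Benjamini-Hochberg adjustment over 13989 genes) was the only test. Its procedure was run on simulated data in which a changed gene had the same effect in both studies. That run does not cover effects that differ between the studies. The number of arrays, 6, sets the precision. All members were named, other complement genes only if at least 2-fold different in the same direction at both times with the diet against chow or with canertinib against diet, and companion lists by counts and medians. The members and lists were chosen with earlier results of these data known. The alternatives were quantile normalization, median centring, floors at the 40th or 60th percentile or none, the mean over a gene's probe sets, leaving out probe sets ending _s_at, _x_at or _a_at, a 1.5-fold threshold, no variance trend and each array left out. Python 3.11.15 and pandas 2.3.3 were used.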

Additional observations from a re-analysis of the deposited data

Results flagged for a closer look

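For 4 members the difference had opposite signs, by at least 1.2-fold each way, in the 2-month and the 5-month study; that limit was chosen after the data were seen. None of these differences between the studies was tested. Mbl2, a mannose-binding lectin, differed by 0.27 and -0.39 on the log2 scale between canertinib and chow at 2 and 5 months. C8g, the gamma chain of C8, differed by 0.28 and -0.71 between diet and chow. Cd46, a membrane cofactor, differed by -0.38 and 1.19 between canertinib and diet, the second a bound because its 5-month diet signal was below the floor. C5ar1, the C5a receptor, differed by 0.59 and -0.30 between canertinib and diet. Route, duration and study length differ together between the studies.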

How the results depend on the processing

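Each group is 1 array of pooled RNA, so few arrays, and for dim genes such as Cd55 and Cd46 the floor, set the precision. The limma fit compares arrays within each study through its term for study. The sign of no median over the members turned under an alternative, but several single differences ranged across 0, most of them small, among them C1qb with canertinib against diet at 2 months (-0.68 to 0.44), C2 with canertinib against diet at 5 months (-0.09 to 1.34), Masp2 with the diet at 5 months (-0.56 to 0.20) and Cd59a with canertinib against chow at 5 months (-0.63 to 0.37). Median log2 differences of the members with the diet were 0.02 and -0.03 at 2 and 5 months under quantile normalization, 0.19 at 2 months under median centring, and -0.10 at 5 months without probe sets ending _s_at, _x_at or _a_at, against 0.09 and -0.17 as reported. With canertinib against diet they were 0.17 at 5 months under quantile normalization and 0.31 and 0.36 under median centring, against 0.41 and 0.28, and with canertinib against chow 0.23 at 5 months under quantile normalization and 0.51 at 2 months without those endings, against 0.34 and 0.33. Counts of members at least 2-fold higher became 0 with canertinib against diet at 2 months under median centring (3 reported) and 2 with the diet at 2 months with the mean over probe sets (4 reported). Without those endings 0 were lower with the diet at 2 months (1 reported, C8b, whose only probe set has such an ending), and the chow pair gave 1 (0 reported) with the floor at the 40th percentile and with no floor. At 1.5-fold, 2 and 6 were lower with the diet at 2 and 5 months, 12 and 11 higher with canertinib against diet, 13 higher with canertinib against chow at 2 months and 2 lower at 5 months, and 1 differed between the chow arrays. In limma the diet call became 0 under quantile normalization, the 40th percentile floor, the mean over probe sets and no trend; canertinib against diet became 1 under quantile normalization (0 reported), and canertinib against chow became 4 under quantile normalization and no floor and 1 under the 40th percentile floor, the mean over probe sets and no trend (2 reported). Fits with 1 array left out kept no call for the diet or for canertinib against chow. With 1 residual degree of freedom, they cannot show whether a call rests on a single array. The cause was not tested.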
